A study of Homo sapiens with 27 samples.

Results

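The 49 genes described here encode the machinery that copies DNA, and they were followed after CARM1 was knocked down in 3 human acute myeloid leukaemia cell lines. They were chosen by symbol, as a list of the helicase, origin, polymerase, clamp, fork and chromatin assembly factors of replication. The rule uses no measured value, but the list was drawn up with earlier results of these data known. All 49 were found, each on 1 row of the table of 57992 genes, and all 49 passed the filter on low counts in every comparison. The lowest count of any of them in any library was 10, for CLSPN.

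Replication starts at origins, where the origin recognition complex, CDC6 and CDT1 load the MCM ring onto DNA. The kinase CDC7 with its partner DBF4, helped by factors such as TOPBP1 and RECQL4, then turns the ring into an active helicase by adding CDC45 and the GINS complex. Polymerase alpha with primase starts each strand, the RFC clamp loader places the PCNA sliding clamp, and polymerases delta and epsilon extend the strands, while RPA coats single-stranded DNA and FEN1, DNA2 and LIG1 finish the lagging strand. Many of these genes are transcribed in a cell cycle dependent way under E2F factors, so dividing cells carry far more of their RNA than resting cells.

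RNA was sequenced in 27 libraries, 9 from each line, taken 3 days after a lentivirus that expresses its short hairpin RNA constitutively was delivered. In each line 3 libraries carried a scramble hairpin, 3 carried CARM1 hairpin 1 and 3 carried CARM1 hairpin 2, and CARM1, also called PRMT4, is a protein arginine methyltransferase. MOLM-13 and MV411 are lines with a KMT2A rearrangement, SKNO1 carries the RUNX1-RUNX1T1 fusion, and only SKNO1 was grown with GM-CSF, at 10 ng/mL. Each group was thus a single cell line under constitutive hairpin expression, and line, GM-CSF and culture cannot be told apart. Total counts ranged from 25063577 to 53291599 per library. The markers followed the line labels: HOXA9 and MEIS1 were at 22.8 CPM (counts scaled to library size) or more in every MOLM-13 and MV411 library and at 0.0258 CPM or less in SKNO1, and RUNX1T1 was at 56.8 to 113 CPM in SKNO1 and at 0.104 CPM or less in the other lines. CD34 was near 0 in all 3 lines, at 0.154 CPM at most. Summed markers of T cells, B cells and fibroblasts reached at most 2.25, 1.6 and 0.581 CPM in any library, and those of epithelial cells 8.23 CPM, from KRT8 in MV411.

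CARM1 itself fell with both hairpins in every line. In MOLM-13 it stood at 20.3, 29.6 and 25 CPM with scramble, 2.77, 5.86 and 5.61 with hairpin 1 and 4.87, 4.22 and 2.82 with hairpin 2. MV411 libraries read 22.8, 23.3 and 24.6 CPM with scramble, 5.79, 6.17 and 6.39 with hairpin 1 and 2.67, 3.65 and 2.56 with hairpin 2. SKNO1 libraries read 16.2, 17 and 20.3 CPM with scramble, 8.07, 5.66 and 8.77 with hairpin 1 and 2.75, 2.69 and 2.85 with hairpin 2. No hairpin library overlapped a scramble library, and hairpin 2 left less CARM1 than hairpin 1 in MV411 (-1.02 ± 0.18, adjusted p = 0.0046) and SKNO1 (-1.45 ± 0.20, adjusted p = 0.00096). The share of the scramble mean that remained with hairpin 2 was 15.9% ± 4.2 in MOLM-13, 12.6% ± 2.56 in MV411 and 15.5% ± 0.449 in SKNO1 (SD, n = 3), and with hairpin 1 it was 19% ± 6.86, 26% ± 1.29 and 42.1% ± 9.17 in the same order. Without the MOLM-13 replicate 1 libraries, which are described next, the MOLM-13 shares were 14.1% with hairpin 2 (16.9% and 11.3%) and 22.9% with hairpin 1 (23.4% and 22.4%).

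Both replicate 1 knockdown libraries of MOLM-13 lay on the side of the other hairpin by a score built from MV411 and SKNO1. A set of 362 genes was lower and 244 genes were higher with hairpin 2 than with hairpin 1 in both MV411 and SKNO1, and the mean log2 level of the second set minus that of the first gives each library a hairpin score. The score, centred on the knockdown libraries of the line, was between 1.08 and 1.30 in the hairpin 2 libraries of MV411 and SKNO1 and between -1.30 and -1.01 in their hairpin 1 libraries. Those libraries also picked the genes, so their separation was fixed in advance and is no test of the score. In MOLM-13 the library labelled hairpin 1 replicate 1 scored 0.77 and its replicates 2 and 3 scored -0.66 and -0.62, whereas the library labelled hairpin 2 replicate 1 scored -0.62 and its replicates 2 and 3 scored 0.18 and 0.96. Scramble libraries scored -0.89, -0.94 and -1.29 in MOLM-13, -0.97 to -0.88 in MV411 and -0.52 to -0.32 in SKNO1. A score below 0 therefore does not by itself mark hairpin 1. The labels were kept as given. Counts, medians and shares by hairpin in MOLM-13 are also given without both libraries, and a comparison that pools the hairpins does not depend on which hairpin a library is given. KIAA0101, one of the 49 genes, is also one of the 362 and so part of the score. It stood at 2.93, 12.5 and 12 CPM in the libraries labelled hairpin 1 and 13.1, 3.89 and 2.92 CPM in those labelled hairpin 2. Other libraries also stood apart. MV411 scramble replicate 2 was below the scramble mean on 48 of the 49 genes, with a median difference of -0.60 on the log2 scale against 0.33 and 0.27 in the other scramble libraries of that line. SKNO1 scramble replicates 1 and 3 differed by a chi-square per gene of 7.75, whereas all other pairs of replicates in a group differed by 23.2 or more.

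**Figure D1:**
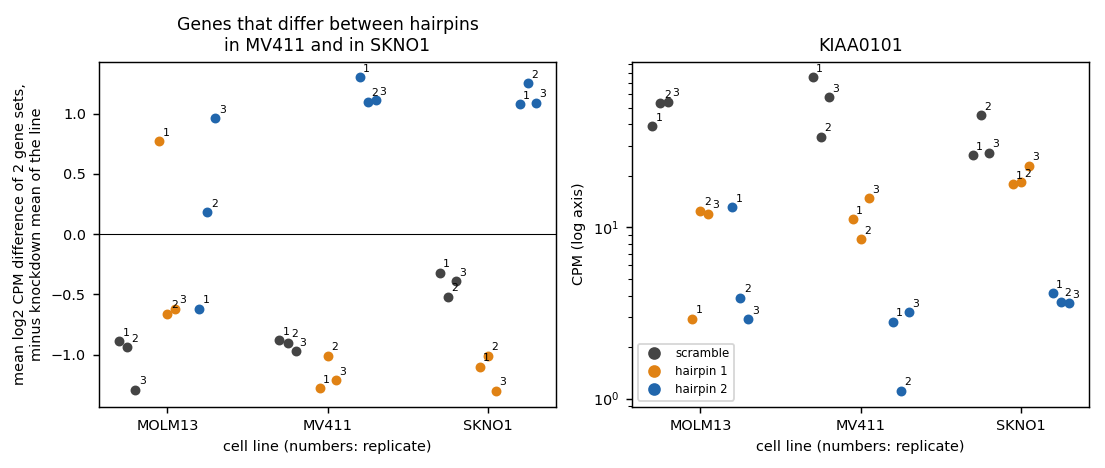
The left panel plots the hairpin score of each library (y axis, difference of mean log2 CPM, minus the knockdown mean of the line) by line and group, and the right panel plots KIAA0101 in CPM on a log axis, with replicate numbers beside the points. In MOLM-13 the replicate 1 library labelled hairpin 1 scores 0.77 and the replicate 1 library labelled hairpin 2 scores -0.62, each on the side of the other hairpin. Scramble libraries also score below 0 in every line.

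Knockdown lowered nearly the whole replication set in MOLM-13 and MV411. In MOLM-13, 48 of 49 genes fell with both hairpins pooled (6 libraries against 3), with a median log2 fold change of -1.38, whereas 9.09% of the 17732 genes tested fell and the median of all genes was 0.05. In MV411, 43 of 49 fell with a median of -1.70, against 3.72% of genes tested and an all-gene median of 0.01. A fall here means an adjusted p under 0.05 in edgeR's quasi-likelihood test with Benjamini-Hochberg adjustment over all genes, and changes are fitted log2 fold changes ± their standard error. Differences between genes in the size of their change were not tested. Without both replicate 1 knockdown libraries, 46 genes fell in MOLM-13 (background 5.98%), and without scramble replicate 2, 45 fell in MV411 (background 3.53%).

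In SKNO1 the same pooled comparison called 0 of the 49 genes, and it called 0.0109% of all genes lower (2 of 18430). The median of the 49 was -0.74, 36 genes had an unadjusted p under 0.05 (as did 15.1% of all genes), 35 of them below 0, and CARM1 itself missed the threshold (-1.80 ± 0.36, adjusted p = 0.07). DESeq2 called 19 of the 49 (background 3.74% in either direction), and edgeR called 26 when the hairpins were separate groups in the fit (background 3.94%) and 23 when all 27 libraries were fitted together (background 2.71%). The hairpins gave different counts in SKNO1: hairpin 1 called 0 of 49 (background 0.277% of genes lower, median -0.53, 24 genes at an unadjusted p under 0.05 against 17.0% of all genes, and 9 by DESeq2 against 5.28%), and hairpin 2 called 39 lower (background 5.69%, median -1.0) and 1 higher (background 5.54%). Without SKNO1 hairpin 2 replicate 2 the hairpin 2 count dropped from 40 to 13 (background 2.95% in either direction), and without hairpin 1 replicate 2 the hairpin 1 count rose from 0 to 4 (background 2.17%).

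The hairpins gave similar counts in the other lines. MOLM-13 hairpin 1 lowered 41 genes (background 4.25%, median -1.53) and hairpin 2 lowered 46 (background 6.03%, median -1.39). MV411 hairpin 1 lowered 41 (background 4.13%, median -1.59) and hairpin 2 lowered 44 (background 10.2%, median -1.66). Both hairpins of a line share its 3 scramble libraries, so their changes are not independent of each other. Without both replicate 1 libraries, the MOLM-13 counts were 39 (background 2.59%, median -1.47) and 43 (background 5.79%, median -1.53). With line as a term and all 27 libraries, 48 of 49 genes fell (background 10.8%, median -1.29). The only one that did not was RPA2 (-0.04 ± 0.10, adjusted p = 0.84). A combined fall is not a fall in every line. With hairpin 1 in SKNO1, fitted values of CDT1, RECQL4, POLD1, POLD2, POLE, RFC2, RPA2 and TIMELESS were above 0, from 0.04 to 0.30. None of these passed (adjusted p from 0.35 to 0.94).

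The libraries could also be told apart gene by gene. In MOLM-13 every knockdown library was below every scramble library for 48 of the 49 genes, as for 13.4% of all genes tested, and RPA2 overlapped. In MV411 this held for 44 genes (7.26% of all genes), and DBF4, PCNA, PRIM2, RFC1 and RPA2 overlapped. In SKNO1 it held for 21 genes with both hairpins (4.22% of all genes) and for 46 with hairpin 2 alone (19.5% of all genes). Against the scramble mean, the median difference of the 49 genes was between -1.68 and -1.26 in the 6 MOLM-13 knockdown libraries and between -1.90 and -1.42 in those of MV411. In SKNO1 it was -0.76, -0.40 and -0.27 with hairpin 1 and -0.92, -1.19 and -0.85 with hairpin 2.

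Structured and mitochondrial ribosomal RNA made up more of every knockdown library than of any scramble library of its line: 40.9% to 52.1% against 36.4% to 38.7% in MOLM-13, 42% to 50.5% against 36.6% to 39.2% in MV411, and 23.4% to 28.7% against 17.7% to 20% in SKNO1. With those RNAs left out, the counts of called genes were 48, 43 and 0 for the pooled comparisons, the same as with them. That setting leaves out only a short list of RNAs. The part of library composition or RNA quality in the result was not tested. A list of 20 mitotic genes, which mark dividing cells, moved with the replication genes in MOLM-13 and MV411. All 20 fell in MOLM-13 (background 9.09%, median -1.98) and in MV411 (background 3.72%, median -2.21). In the pooled SKNO1 comparison 0 of 20 passed (background 0.0109% lower, median -0.63). Not all 20 were below 0 there, with CDC20 at 0.01 ± 0.28 and PLK1 at 0.04 ± 0.26. In bulk RNA, fewer dividing cells and less RNA of these genes per cell cannot be told apart. Of the 6 markers listed for the KMT2A lines, CD14 and ITGAM are myeloid maturation genes. In MOLM-13 both were higher in every knockdown library than in any scramble library, as were 7.81% of all genes tested. CD14 was at 0.06 to 0.18 CPM with scramble, 1.11 to 7.31 with hairpin 1 and 1.29 to 6 with hairpin 2 there (4.85 ± 0.89, adjusted p = 0.0046), and ITGAM was at 10.4 to 32.8, 36.4 to 131 and 34.9 to 145 CPM (1.77 ± 0.57, adjusted p = 0.056). In MV411, hairpin 2 alone lay clear of scramble, with CD14 at 2.42 to 3.23 against 0.33 to 0.635 CPM, ITGAM at 14.1 to 24.4 against 1.14 to 3.56 and LYZ, lysozyme, at 958 to 1500 against 367 to 773. Every hairpin 2 library was above every scramble library there for 13.5% of all genes tested. With the hairpins pooled in MV411, CD14 (1.78 ± 0.82, adjusted p = 0.25), ITGAM (2.25 ± 0.82, adjusted p = 0.14) and LYZ (0.91 ± 0.29, adjusted p = 0.1) did not pass. LYZ overlapped in MOLM-13 (474 to 3390 CPM with scramble, 712 to 4990 with knockdown), and in SKNO1 CD14 was at 0.0237 CPM at most and ITGAM at 1.04 at most. On the same list, HOXA9 (-0.45 ± 0.17, adjusted p = 0.087), MEIS1 (-0.50 ± 0.14, adjusted p = 0.034) and FLT3 (-0.76 ± 0.22, adjusted p = 0.036) went down in MOLM-13. Fitted values of HOXA9, MEIS1 and FLT3 were also below 0 in MV411 (-0.15, -0.18 and -0.50), where none passed (adjusted p from 0.16 to 0.66). The summed level of the 6 was 869 to 3760 CPM with scramble, 3160 to 5290 with hairpin 1 and 931 to 5210 with hairpin 2 in MOLM-13, 794 to 1350, 1090 to 1340 and 1250 to 1900 in MV411 and 46.1 to 62.4, 36 to 49.8 and 55.1 to 62.5 in SKNO1, and the part of these markers in the replication result was not tested.

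**Figure D2:**
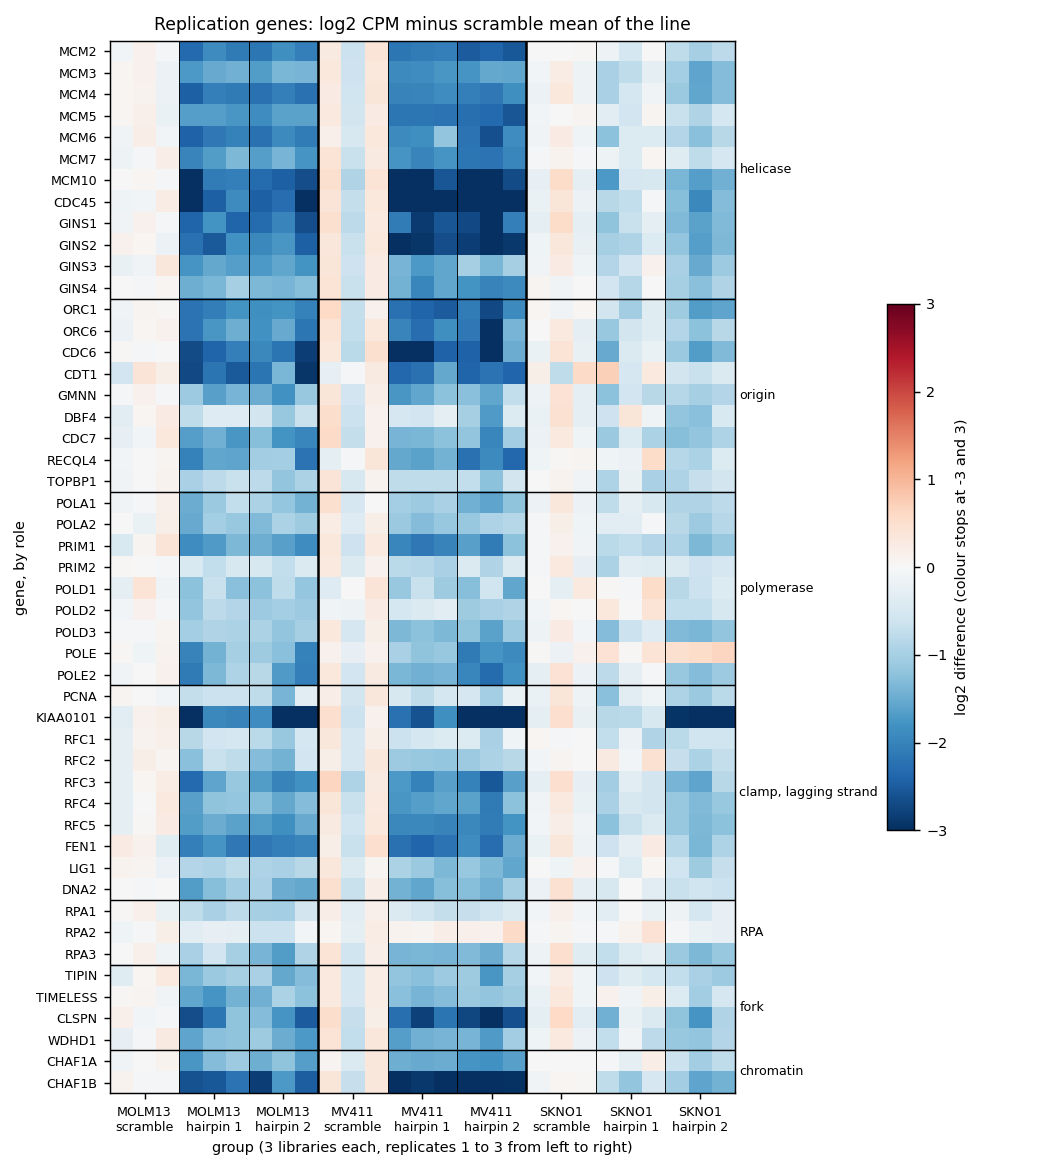
Each row is 1 of the 49 genes, ordered by role, and each column is 1 library in groups of 3, with colour giving log2 CPM minus the scramble mean of the same line. The MOLM-13 and MV411 knockdown columns are blue in nearly every row, the SKNO1 hairpin 1 columns are pale, and the POLE row is red in SKNO1 and blue in the other lines.

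**Figure D3:**
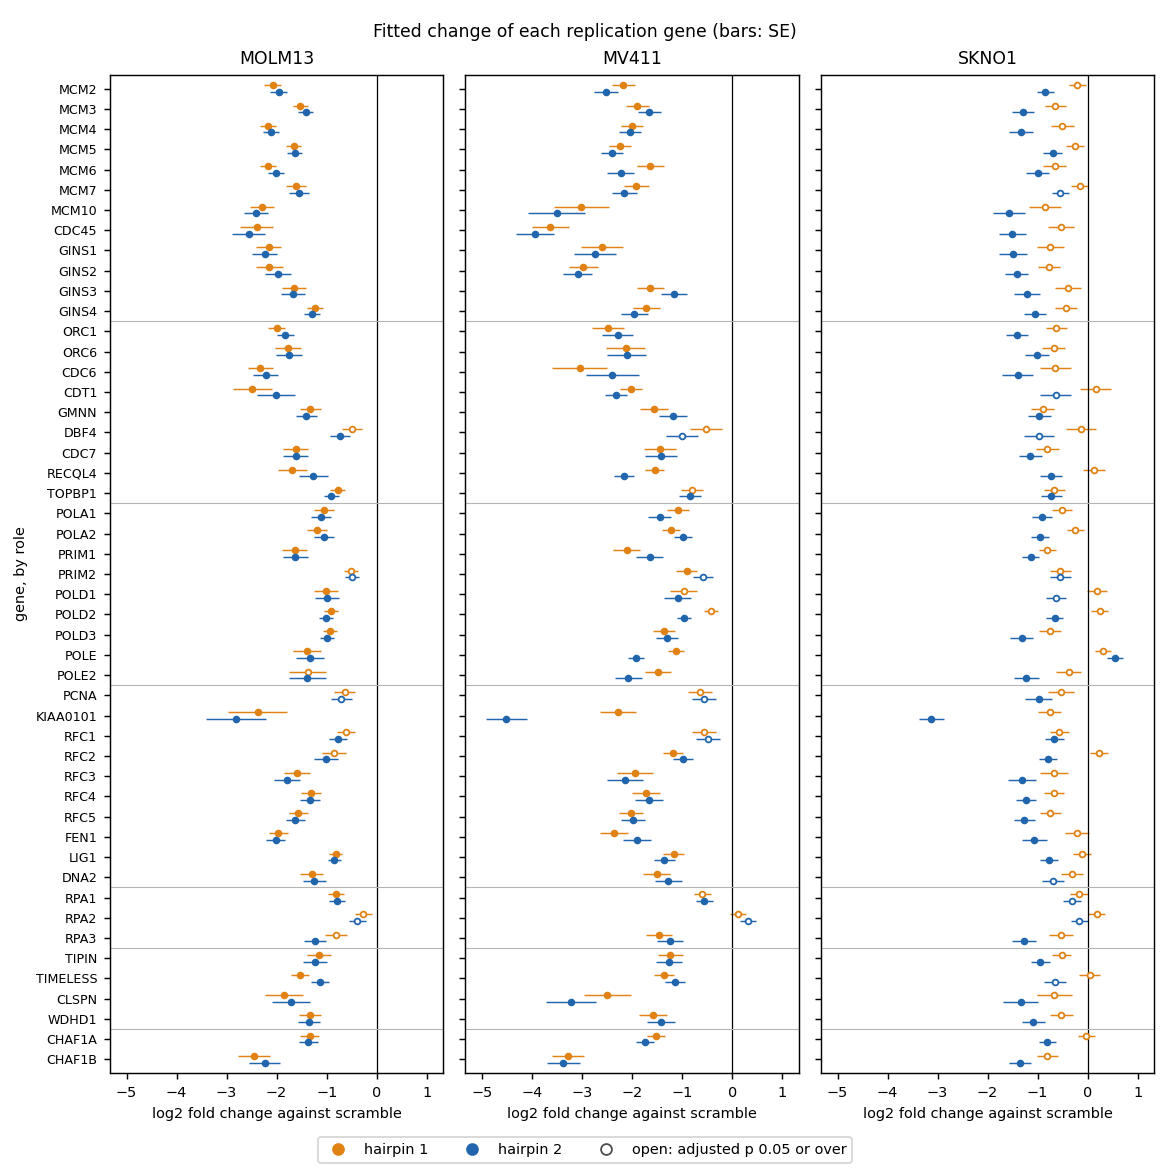
Points give the fitted log2 fold change of each gene against scramble (x axis) for hairpin 1 (orange) and hairpin 2 (blue) in each line, with the standard error as bars and open points where the adjusted p was 0.05 or over. In SKNO1 all 49 hairpin 1 points are open, while 40 hairpin 2 points are filled, of which only POLE lies above 0.

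Promoter sequences are shown because the genes moved together and E2F binding words are a known element of many replication promoters. RefSeq promoters (GRCh38.p14) were matched for 40 of the 49 genes, and MCM4, MCM5, GINS4, RECQL4, POLD3, KIAA0101, DNA2, RPA2 and RPA3 were not matched. The words TTTCCCGC, TTTCGCGC, TTTGCCGC and TTTGGCGC were searched on both strands in the 250 bases before the start, where TTTCGCGC and TTTGGCGC can overlap each other on opposite strands. They were found in 11 of 40 promoters (27.5%), against 761 of 27305 promoters in the table (2.79%). The 11 were MCM3, MCM6, MCM7, GINS2, CDT1, POLA1, POLA2, POLE, PCNA, RFC3 and LIG1. Matched promoters without a word included those of RFC5, which had the smallest combined p, and CDC45, which had the largest combined fall. The part of E2F factors in the result was not tested. The CCAAT word, on either strand, was in 55% of the 40 and in 33% of all promoters, and the words TTTGAA and TTTAAA, in which cell cycle homology regions are written, were in 0 of 40 and in 22.1% of all. These shares describe letters and not binding, and base composition, which they share, was not matched. Below are the 6 genes with an E2F word and the smallest p in the combined comparison, then the 2 matched genes with the largest p. Each run ends at the base before the start, it begins 10 bases before the first word in MCM3, MCM6, MCM7 and POLA1 and covers 100 bases otherwise, and capitals mark the words.
MCM3 (chr6:52284743-52284926, minus strand): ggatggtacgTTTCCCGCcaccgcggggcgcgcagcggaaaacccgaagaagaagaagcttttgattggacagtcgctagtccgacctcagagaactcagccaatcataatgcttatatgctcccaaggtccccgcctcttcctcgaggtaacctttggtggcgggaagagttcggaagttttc
GINS2 (chr16:85688955-85689054, minus strand): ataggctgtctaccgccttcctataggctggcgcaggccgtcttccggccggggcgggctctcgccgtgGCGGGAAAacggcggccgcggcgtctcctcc
MCM6 (chr2:135876444-135876605, minus strand): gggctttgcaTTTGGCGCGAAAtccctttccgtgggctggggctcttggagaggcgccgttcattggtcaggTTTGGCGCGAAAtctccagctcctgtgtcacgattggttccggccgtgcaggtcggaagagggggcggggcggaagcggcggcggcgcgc
MCM7 (chr7:100101398-100101594, minus strand): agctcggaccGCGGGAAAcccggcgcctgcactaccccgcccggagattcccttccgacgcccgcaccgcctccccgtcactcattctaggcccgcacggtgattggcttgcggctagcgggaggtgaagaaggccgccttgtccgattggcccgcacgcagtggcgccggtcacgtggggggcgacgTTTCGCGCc
POLA1 (chrX:24693771-24693917, plus strand): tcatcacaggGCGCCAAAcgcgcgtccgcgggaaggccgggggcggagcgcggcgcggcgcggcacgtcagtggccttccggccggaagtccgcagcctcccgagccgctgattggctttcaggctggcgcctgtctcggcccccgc
RFC3 (chr13:33818049-33818148, plus strand): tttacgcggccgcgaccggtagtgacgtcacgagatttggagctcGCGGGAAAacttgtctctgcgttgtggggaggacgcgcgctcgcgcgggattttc
DBF4 (chr7:87876393-87876492, plus strand): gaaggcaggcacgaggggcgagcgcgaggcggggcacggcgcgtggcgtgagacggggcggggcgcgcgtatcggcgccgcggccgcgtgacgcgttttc
POLE (chr12:132687343-132687442, minus strand): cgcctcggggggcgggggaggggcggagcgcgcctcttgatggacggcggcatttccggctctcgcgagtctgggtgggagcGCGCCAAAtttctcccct
In MCM6 the words overlap into the same 12 letters at 2 places, and MCM7 holds a word 187 bases and another 9 bases before its start. POLE holds a word 18 bases before its start, and DBF4 holds none.

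All 12 helicase genes fell in MOLM-13 (background 9.09%, median -2.04) and in MV411 (background 3.72%, median -2.18). All 12 also fell in the combined comparison (background 10.8%, median -1.67), and each fell by more than 2-fold in these fits. With hairpin 2 in SKNO1, 11 of 12 fell (background 5.69%, median -1.26). The MCM2 to MCM7 genes encode the ring that unwinds DNA. MCM4 in MOLM-13 stood at 301, 307 and 255 CPM with scramble, 52.3, 69.3 and 65.3 with hairpin 1 and 60.9, 69 and 60.9 with hairpin 2. In MV411, MCM4 stood at 264, 148 and 288 CPM with scramble, 55.9, 56.4 and 61.7 with hairpin 1 and 53.9, 50.6 and 62.4 with hairpin 2. SKNO1 gave MCM4 levels of 121, 172 and 124 CPM with scramble, 70, 95.6 and 128 with hairpin 1 and 63.6, 46.4 and 56.1 with hairpin 2. Every knockdown library of MOLM-13 and MV411 lay far below scramble, while in SKNO1 only hairpin 2 lay clear of scramble and hairpin 1 replicate 3 lay among the scramble libraries. MCM4 fell by 2.14 ± 0.12 on the log2 scale in MOLM-13 (adjusted p = 2.1e-05), which was the smallest p of the 49 genes there, and the share of its scramble mean that remained with hairpin 2 was 22.1% ± 1.62 in MOLM-13 (22.6% without replicate 1), 23.8% ± 2.6 in MV411 and 39.8% ± 6.19 in SKNO1.

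MCM2 encodes another subunit of the ring. It stood in MOLM-13 at 97, 114 and 99.4 CPM with scramble, 20.4, 27.9 and 23.7 with hairpin 1 and 22.9, 28.7 and 24.8 with hairpin 2. Levels in MV411 were 152, 80.3 and 163 CPM with scramble, 27.9, 29.2 and 30.2 with hairpin 1 and 22.2, 23.8 and 21.4 with hairpin 2. Levels in SKNO1 were 132, 132 and 138 CPM with scramble, 120, 93.4 and 135 with hairpin 1 and 78.9, 67.1 and 77.6 with hairpin 2. All knockdown libraries of MOLM-13 and MV411 lay below scramble, and in SKNO1 hairpin 1 overlapped scramble while hairpin 2 did not. The fall was -2.01 ± 0.13 in MOLM-13 (adjusted p = 2.2e-05), -2.34 ± 0.21 in MV411 (adjusted p = 0.00022) and -0.85 ± 0.17 with hairpin 2 in SKNO1 (adjusted p = 0.0081). In GENCODE 29, 23.6% of MCM2 exon bases overlap genes on the opposite strand (TPRA1 and AC023593.1), and whether counting used strand is not given in the sources used here.

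MCM3 and MCM5 encode further subunits of the ring. MCM3 in MOLM-13 read 130, 136 and 110 CPM with scramble, 37.8, 44.1 and 45.7 with hairpin 1 and 39.2, 48 and 47.9 with hairpin 2. MCM3 in MV411 read 115, 61 and 116 CPM with scramble, 24.9, 25.8 and 27.8 with hairpin 1 and 27.2, 32.1 and 31.8 with hairpin 2. MCM3 in SKNO1 read 126, 154 and 120 CPM with scramble, 67.3, 78.3 and 110 with hairpin 1 and 65, 44.6 and 54.2 with hairpin 2. In SKNO1, unlike MCM4, MCM3 was below scramble in all 6 knockdown libraries, and hairpin 2 fell by 1.30 ± 0.22 (adjusted p = 0.0034). MCM5 in MOLM-13 read 94.1, 99.4 and 78.1 CPM with scramble, 28.7, 28.5 and 26.7 with hairpin 1 and 24.6, 29.3 and 29.5 with hairpin 2. MCM5 in MV411 read 134, 73.3 and 129 CPM with scramble, 24, 24 and 23.2 with hairpin 1 and 22.5, 21.4 and 18.3 with hairpin 2. MCM5 in SKNO1 read 79.4, 83.8 and 89.1 CPM with scramble, 65.9, 56.5 and 88.6 with hairpin 1 and 52.6, 45.1 and 58.2 with hairpin 2. MCM5 separated cleanly in MOLM-13 and MV411 and, in SKNO1, with hairpin 2 alone.

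MCM6 and MCM7 complete the ring. MCM6 in MOLM-13 read 89.7, 111 and 90.6 CPM with scramble, 18, 21.9 and 23.6 with hairpin 1 and 20.3, 25.7 and 22.5 with hairpin 2. MCM6 in MV411 read 126, 80.7 and 142 CPM with scramble, 30.2, 31.5 and 50 with hairpin 1 and 24.2, 18 and 31 with hairpin 2. MCM6 in SKNO1 read 64.9, 83.2 and 64.7 CPM with scramble, 30.2, 52.6 and 52.8 with hairpin 1 and 38.1, 29.4 and 39.6 with hairpin 2. MCM6 was below scramble in every knockdown library of all 3 lines, and in MOLM-13 it fell by 2.09 ± 0.13 (adjusted p = 2.2e-05). MCM7 in MOLM-13 read 175, 191 and 223 CPM with scramble, 49.8, 61.1 and 77.2 with hairpin 1 and 61.8, 74 and 57.2 with hairpin 2. MCM7 in MV411 read 237, 111 and 215 CPM with scramble, 52.5, 45.1 and 52.2 with hairpin 1 and 39.6, 38.4 and 46.2 with hairpin 2. MCM7 in SKNO1 read 157, 178 and 158 CPM with scramble, 147, 124 and 171 with hairpin 1 and 127, 97.4 and 115 with hairpin 2. MCM7 was the only helicase gene not called with hairpin 2 in SKNO1 (-0.55 ± 0.17, adjusted p = 0.06), although those 3 libraries lay below all scramble libraries, and 25 of its 27 values were not whole, as RSEM writes them where reads are shared between genes.

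CDC45, the factor that turns the loaded ring into a working helicase, had the largest combined fall of the 49 genes (-2.50 ± 0.28, adjusted p = 3.5e-07). In MOLM-13, CDC45 was at 20.6, 21.3 and 26.2 CPM with scramble, 2.57, 4.07 and 6.05 with hairpin 1 and 4.08, 4.56 and 2.42 with hairpin 2. Across MV411 it was at 24.8, 11.6 and 23.8 CPM with scramble, 1.45, 1.39 and 1.99 with hairpin 1 and 1.28, 0.692 and 1.82 with hairpin 2. Across SKNO1 it was at 19.8, 29.4 and 20.3 CPM with scramble, 12.7, 13.6 and 21.8 with hairpin 1 and 9.42, 5.93 and 9.27 with hairpin 2. In MV411 the hairpin libraries held 8.02% ± 1.65 (hairpin 1) and 6.3% ± 2.82 (hairpin 2) of the scramble mean, and in SKNO1 hairpin 1 replicate 3 overlapped scramble. MCM10, which helps to activate the helicase, also fell (-2.32 ± 0.26 combined), and so did GINS2 (-2.10 ± 0.20) and GINS1 (-2.01 ± 0.21) of the GINS complex.

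GINS3 changed least among the helicase genes (-1.27 ± 0.16 combined, adjusted p = 1.7e-06). GINS3 levels in MOLM-13 were 6.84, 7.45 and 10.1 CPM with scramble, 2.33, 2.73 and 2.49 with hairpin 1 and 2.4, 2.69 and 2.29 with hairpin 2. GINS3 levels in MV411 were 9.36, 4.68 and 8.66 CPM with scramble, 2.7, 2.16 and 2.44 with hairpin 1 and 3.63, 2.77 and 3.59 with hairpin 2. GINS3 levels in SKNO1 were 8.04, 10.3 and 7.95 CPM with scramble, 4.74, 5.85 and 9.5 with hairpin 1 and 4.39, 3 and 4.07 with hairpin 2. It still separated fully in MOLM-13 and MV411, and the fitted values of all 4 GINS genes were below 0 in every comparison with scramble. Both GINS3 (23 of 27 values not whole) and GINS4 (24 of 27) share reads with other genes, and 23.6% of GINS4 exon bases overlap genes on the opposite strand (AC009630.1 and AC009630.2).

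Of the 9 origin genes, all 9 fell in MOLM-13 (background 9.09%), 8 in MV411 (background 3.72%) and 7 with hairpin 2 in SKNO1 (background 5.69%). CDC6, the loader of the MCM ring, fell most (-2.03 ± 0.25 combined, adjusted p = 1e-06). CDC6 in MOLM-13 measured 28.7, 27.3 and 27.5 CPM with scramble, 4.3, 5.24 and 6.68 with hairpin 1 and 7.24, 6.06 and 3.89 with hairpin 2. CDC6 in MV411 measured 31.8, 14.4 and 35.4 CPM with scramble, 2.86, 2.32 and 4.69 with hairpin 1 and 4.69, 1.46 and 9.05 with hairpin 2. CDC6 in SKNO1 measured 27.6, 42.2 and 27 CPM with scramble, 11, 23.2 and 27.7 with hairpin 1 and 14.6, 9.8 and 12.7 with hairpin 2. The MV411 hairpin 2 libraries spread widely, from 1.46 to 9.05 CPM, and still lay below the lowest scramble library. ORC1 (-1.79 ± 0.17) and ORC6 (-1.59 ± 0.18), subunits of the origin recognition complex, and CDT1, the partner of CDC6 (-1.63 ± 0.25), fell in the combined comparison, as did GMNN (-1.22 ± 0.12), the inhibitor of CDT1. CDT1 was spread in the SKNO1 scramble libraries, at 74.2, 38.9 and 97.8 CPM, and was not called there with hairpin 2 (-0.64 ± 0.31, adjusted p = 0.22). Its fitted value with hairpin 1 there was above 0 (0.16 ± 0.31, adjusted p = 0.85).

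DBF4, which activates the CDC7 kinase, changed least among the origin genes (-0.61 ± 0.17 combined, adjusted p = 0.0093). DBF4 in MOLM-13 measured 24.6, 32 and 36.4 CPM with scramble, 18.1, 23.4 and 23.4 with hairpin 1 and 21, 13.8 and 19.2 with hairpin 2. DBF4 in MV411 measured 44, 19.6 and 33.3 CPM with scramble, 21.5, 20.7 and 25 with hairpin 1 and 15.3, 9.46 and 22.9 with hairpin 2. DBF4 in SKNO1 measured 24.8, 39.2 and 23.4 CPM with scramble, 18.4, 36.4 and 25.8 with hairpin 1 and 12.5, 11.8 and 20.5 with hairpin 2. The knockdown libraries of MOLM-13 all lay below scramble, but in MV411 the low scramble replicate 2 lay inside the knockdown range, and DBF4 was not called there (-0.75 ± 0.29, adjusted p = 0.17). CDC7, its kinase partner, fell by more (-1.34 ± 0.14 combined). RECQL4 (-1.23 ± 0.20) and TOPBP1 (-0.79 ± 0.09), which act when origins fire, also fell in the combined comparison. In SKNO1, RECQL4 was at -0.25 ± 0.28 with the hairpins pooled (adjusted p = 0.72) and at 0.12 ± 0.22 with hairpin 1 (adjusted p = 0.84). All 27 DBF4 values were not whole, which marks shared reads.

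All 9 polymerase genes fell in the combined comparison (background 10.8%), with a median of -0.93 beside -1.67 for the helicase. That comparison fits 1 change for all lines, and POLE is counted there as a fall although it rose with hairpin 2 in SKNO1. Primase has a catalytic subunit, PRIM1, and a larger subunit, PRIM2, and these were the largest and the smallest change of the group. PRIM1 in MOLM-13 came to 15.5, 22.5 and 27.7 CPM with scramble, 5.78, 6.54 and 8.34 with hairpin 1 and 7.7, 6.82 and 5.84 with hairpin 2. PRIM1 in MV411 came to 46.8, 24.4 and 46 CPM with scramble, 9.55, 8.46 and 9.25 with hairpin 1 and 12.1, 8.69 and 16 with hairpin 2. PRIM1 in SKNO1 came to 30.3, 33.7 and 28.9 CPM with scramble, 17.7, 18.4 and 16.8 with hairpin 1 and 16.3, 12.2 and 13.9 with hairpin 2. PRIM1 was lower in all 18 knockdown libraries than in any scramble library of the same line, and it fell by 1.50 ± 0.14 in the combined comparison (adjusted p = 1.8e-08). It had the smallest p of the 49 genes in the pooled SKNO1 comparison (-0.97 ± 0.17, adjusted p = 0.061) and with hairpin 1 there (-0.81 ± 0.17, adjusted p = 0.059), which missed the threshold both times. PRIM1 shares 16.2% of its exon bases with other genes on its strand, among them NACA.

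PRIM2 in MOLM-13 came to 31.1, 30.8 and 30 CPM with scramble, 22.5, 18.4 and 21.9 with hairpin 1 and 22, 18.3 and 22.6 with hairpin 2. PRIM2 in MV411 came to 22.7, 13.7 and 20.4 CPM with scramble, 10.5, 10.3 and 9.47 with hairpin 1 and 13.8, 9.92 and 13.8 with hairpin 2. PRIM2 in SKNO1 came to 20.2, 25.7 and 17.6 CPM with scramble, 10.8, 16.4 and 16.2 with hairpin 1 and 15.4, 13.5 and 14.8 with hairpin 2. The combined fall was -0.59 ± 0.09 (adjusted p = 3.1e-05), and hairpin 2 replicates 1 and 3 of MV411 overlapped scramble replicate 2. The polymerase alpha subunits POLA1 (-1.01 ± 0.12) and POLA2 (-0.93 ± 0.12) fell in the combined comparison. Of polymerase delta, POLD3 fell by more (-1.10 ± 0.11) than the catalytic subunit POLD1 (-0.76 ± 0.16) or POLD2 (-0.60 ± 0.13). With hairpin 1 in SKNO1, POLD1 (0.18 ± 0.20) and POLD2 (0.24 ± 0.17) had fitted values above 0 and were not called.

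POLE, the catalytic subunit of polymerase epsilon, was the only gene of the 49 called higher in any comparison of a hairpin with scramble. Its gene lies at chr12:132623753-132687365 on the minus strand (GENCODE 29, GRCh38). POLE in MOLM-13 came to 61.3, 54.4 and 64.3 CPM with scramble, 14.9, 22.4 and 30 with hairpin 1 and 28.3, 25.2 and 14.6 with hairpin 2. POLE in MV411 came to 66.1, 51.1 and 65.8 CPM with scramble, 30.7, 26.2 and 27.5 with hairpin 1 and 13.9, 17.7 and 16 with hairpin 2. POLE in SKNO1 came to 262, 227 and 280 CPM with scramble, 347, 262 and 338 with hairpin 1 and 354, 377 and 403 with hairpin 2. It was lower in every knockdown library of MOLM-13 and MV411, and in SKNO1 all 3 hairpin 2 libraries were above all 3 scramble libraries (as for 19.4% of all genes), while hairpin 1 replicate 2 was among them. The fitted change was -1.37 ± 0.22 in MOLM-13 (adjusted p = 0.0024), -1.46 ± 0.23 in MV411 (adjusted p = 0.0038) and 0.55 ± 0.16 with hairpin 2 in SKNO1 (adjusted p = 0.039). The SKNO1 call held in 7 of 15 other settings, with adjusted p from 0.0058 to 0.14, and it was lost without any 1 of the scramble or hairpin 2 libraries. POLE2, the second subunit of the enzyme, went the other way in SKNO1 (-1.23 ± 0.25, adjusted p = 0.0096 with hairpin 2) and fell in the combined comparison (-1.30 ± 0.18).

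Of the 10 clamp and lagging strand genes, all 10 fell in MOLM-13 (background 9.09%) and 8 in MV411 (background 3.72%). With hairpin 2 in SKNO1, 9 fell (background 5.69%). KIAA0101, also named PCLAF, encodes a small protein that binds the PCNA clamp, and it lies at chr15:64364311-64387687 on the minus strand (GENCODE 29, GRCh38). KIAA0101 levels in MOLM-13 were 38.8, 52.9 and 54 CPM with scramble, 2.93, 12.5 and 12 with hairpin 1 and 13.1, 3.89 and 2.92 with hairpin 2. KIAA0101 levels in MV411 were 75, 33.9 and 57.3 CPM with scramble, 11.2, 8.55 and 14.8 with hairpin 1 and 2.81, 1.11 and 3.19 with hairpin 2. KIAA0101 levels in SKNO1 were 26.4, 45.3 and 27.3 CPM with scramble, 17.8, 18.4 and 22.9 with hairpin 1 and 4.13, 3.68 and 3.62 with hairpin 2. No knockdown library overlapped scramble in any line, and in MV411 and SKNO1 every hairpin 2 library was below every hairpin 1 library. With hairpin 2, 4.28% ± 1.99 of the scramble mean remained in MV411 and 11.5% ± 0.839 in SKNO1, against 20.7% ± 5.64 and 59.6% ± 8.44 with hairpin 1. In MOLM-13 the change was -2.38 ± 0.59 with hairpin 1 and -2.82 ± 0.60 with hairpin 2, and without both replicate 1 libraries it was -1.98 ± 0.22 and -3.78 ± 0.25. KIAA0101 is part of the score that singled out those libraries, so the wider gap without them is partly built in. All 27 KIAA0101 values were not whole and 28.8% of its exon bases overlap AC087632.1 on the same strand, so its level includes reads assigned between genes.

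RFC1, the large subunit of the clamp loader, changed least of the group (-0.61 ± 0.10 combined, adjusted p = 4.3e-05). RFC1 levels in MOLM-13 were 50.5, 65.7 and 68.1 CPM with scramble, 34.3, 40.9 and 42.5 with hairpin 1 and 34.5, 27.6 and 42.1 with hairpin 2. RFC1 levels in MV411 were 81.9, 46 and 73 CPM with scramble, 41.8, 45.1 and 49.1 with hairpin 1 and 49.1, 33.2 and 59.1 with hairpin 2. RFC1 levels in SKNO1 were 109, 101 and 103 CPM with scramble, 63, 91.9 and 56 with hairpin 1 and 60.1, 69 and 69.3 with hairpin 2. MOLM-13 and SKNO1 separated, and in MV411 3 of the 6 knockdown libraries lay above the low scramble replicate 2. The small subunits RFC3 (-1.58 ± 0.18), RFC4 (-1.32 ± 0.13) and RFC5 (-1.54 ± 0.13, adjusted p = 1.2e-08) fell by more, and RFC2 (-0.75 ± 0.15) by about as much as RFC1. With hairpin 1 in SKNO1, the fitted value of RFC2 was above 0 (0.23 ± 0.18, adjusted p = 0.55). RFC5 had the smallest combined p of all 49 genes, although all 27 of its values were not whole.

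PCNA, the sliding clamp, had a modest change and wide spread. In MOLM-13, PCNA was at 184, 174 and 162 CPM with scramble, 106, 111 and 111 with hairpin 1 and 103, 66 and 138 with hairpin 2. Through MV411 it was at 145, 86.1 and 158 CPM with scramble, 90.3, 73.5 and 86.3 with hairpin 1 and 88.4, 62.2 and 110 with hairpin 2. Through SKNO1 it was at 81.1, 120 and 83.3 CPM with scramble, 39.1, 73.5 and 85.6 with hairpin 1 and 49.3, 43.2 and 53.6 with hairpin 2. It was called in the pooled MOLM-13 comparison (-0.67 ± 0.17, adjusted p = 0.022) and not in MV411 (-0.60 ± 0.20, adjusted p = 0.12), where scramble replicate 2 was at 86.1 CPM. The lagging strand enzymes FEN1, a flap nuclease (-1.62 ± 0.19), LIG1, a DNA ligase (-0.85 ± 0.12), and DNA2, a nuclease and helicase (-1.06 ± 0.14), all fell in the combined comparison.

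The 3 subunits of RPA, which bind single-stranded DNA as 1 complex, were not all called. RPA3 (-1.07 ± 0.14, adjusted p = 3.2e-06) and RPA1 (-0.55 ± 0.09, adjusted p = 5e-05) fell in the combined comparison and RPA2 did not pass (-0.04 ± 0.10, adjusted p = 0.84). RPA2 in MOLM-13 was measured at 38.9, 41.7 and 48.3 CPM with scramble, 34.1, 36.3 and 34.7 with hairpin 1 and 27.4, 27.1 and 40.6 with hairpin 2. RPA2 in MV411 was measured at 65, 52.4 and 73.1 CPM with scramble, 67.7, 66.9 and 72.5 with hairpin 1 and 70.2, 68.8 and 93 with hairpin 2. RPA2 in SKNO1 was measured at 41.8, 45.6 and 41.1 CPM with scramble, 41.7, 46.3 and 57.7 with hairpin 1 and 41.9, 37.5 and 36 with hairpin 2. Knockdown and scramble overlapped in all 3 lines, and the fitted values were below 0 in MOLM-13 (-0.33 ± 0.14, adjusted p = 0.14) and above 0 in MV411 (0.22 ± 0.15, adjusted p = 0.48). RPA3 in MOLM-13 was measured at 13.6, 15.3 and 12.6 CPM with scramble, 6.94, 9.21 and 6.83 with hairpin 1 and 5.23, 4.25 and 7.37 with hairpin 2. RPA3 in MV411 was measured at 19.3, 9.48 and 16.6 CPM with scramble, 5.43, 5.56 and 5.49 with hairpin 1 and 5.79, 5.15 and 8.02 with hairpin 2. RPA3 in SKNO1 was measured at 12.4, 19.6 and 10.6 CPM with scramble, 8.15, 10.3 and 11.1 with hairpin 1 and 6.36, 5.35 and 6.21 with hairpin 2. RPA3 lay below scramble in all knockdown libraries of MOLM-13 and MV411 and in SKNO1 with hairpin 2, which fell by 1.27 ± 0.24 (adjusted p = 0.0074). 

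All 4 genes that protect the moving fork fell in MOLM-13 (background 9.09%) and in MV411 (background 3.72%), and 3 of 4 did with hairpin 2 in SKNO1 (background 5.69%). CLSPN, which encodes the checkpoint mediator claspin, fell most (-1.90 ± 0.26 combined, adjusted p = 5.7e-06). CLSPN in MOLM-13 lay at 19.6, 16.7 and 16.9 CPM with scramble, 2.77, 3.87 and 7.69 with hairpin 1 and 7.2, 5.14 and 3.08 with hairpin 2. CLSPN in MV411 lay at 20.8, 8.95 and 16.3 CPM with scramble, 3, 2.04 and 3.15 with hairpin 1 and 2.13, 0.384 and 2.28 with hairpin 2. CLSPN in SKNO1 lay at 10.7, 19.7 and 10.4 CPM with scramble, 4.77, 11.4 and 9.62 with hairpin 1 and 5.55, 3.78 and 6.94 with hairpin 2. MV411 hairpin 2 replicate 2 was at 0.384 CPM, the lowest value of CLSPN, and SKNO1 hairpin 1 replicate 2 overlapped scramble. TIMELESS, the fork protection partner of TIPIN, changed least (-0.97 ± 0.15, adjusted p = 2.2e-05). TIMELESS in MOLM-13 lay at 30.7, 31.8 and 28.2 CPM with scramble, 10.3, 8.85 and 11.3 with hairpin 1 and 11.1, 15.7 and 12.7 with hairpin 2. TIMELESS in MV411 lay at 44.7, 25.7 and 42.9 CPM with scramble, 15.2, 13.9 and 14.9 with hairpin 1 and 17, 16 and 17.3 with hairpin 2. TIMELESS in SKNO1 lay at 21.6, 30.8 and 22.5 CPM with scramble, 26.9, 23 and 27.7 with hairpin 1 and 18.5, 11.9 and 17.5 with hairpin 2. TIMELESS separated in MOLM-13 and MV411, and with hairpin 2 in SKNO1 its fitted value missed the threshold (-0.66 ± 0.22, adjusted p = 0.068). TIPIN (-1.05 ± 0.12) and WDHD1 (-1.22 ± 0.14), which links polymerase alpha to the helicase, fell in the combined comparison. TIPIN shares 21.0% of its exon bases with the pseudogene RPL9P25 on its strand.

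Chromatin assembly factor 1 places histones on new DNA, and both of its subunits listed here fell. CHAF1B was found in MOLM-13 at 7.98, 7.21 and 7.12 CPM with scramble, 1.16, 1.24 and 1.56 with hairpin 1 and 1, 2.2 and 1.29 with hairpin 2. CHAF1B was found in MV411 at 12.6, 6 and 12.3 CPM with scramble, 0.955, 1.27 and 0.931 with hairpin 1 and 0.853, 0.846 and 1.2 with hairpin 2. CHAF1B was found in SKNO1 at 8.42, 9.46 and 9.22 CPM with scramble, 5.26, 3.95 and 6.32 with hairpin 1 and 4.32, 2.95 and 3.32 with hairpin 2. All 18 knockdown libraries were below all scramble libraries of their line. CHAF1B fell by 3.34 ± 0.25 in MV411 (adjusted p = 0.00012), where 9.37% ± 1.94 of the scramble mean remained with hairpin 2, and fell by 1.36 ± 0.22 with hairpin 2 in SKNO1 (adjusted p = 0.0029). CHAF1A was found in MOLM-13 at 34.5, 36.9 and 39.4 CPM with scramble, 10.9, 14.9 and 17.3 with hairpin 1 and 13.4, 15.8 and 11.6 with hairpin 2. CHAF1A was found in MV411 at 38.5, 27.2 and 46.3 CPM with scramble, 13.2, 12.8 and 13 with hairpin 1 and 10.7, 10.4 and 11.8 with hairpin 2. CHAF1A was found in SKNO1 at 34.2, 35 and 35 CPM with scramble, 33.6, 28.9 and 39.6 with hairpin 1 and 22.2, 16.9 and 20.5 with hairpin 2. CHAF1A fell by less (-1.15 ± 0.15 combined, against -2.30 ± 0.22 for CHAF1B), and in SKNO1 its hairpin 1 libraries lay on both sides of the scramble range.

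**Figure D4:**
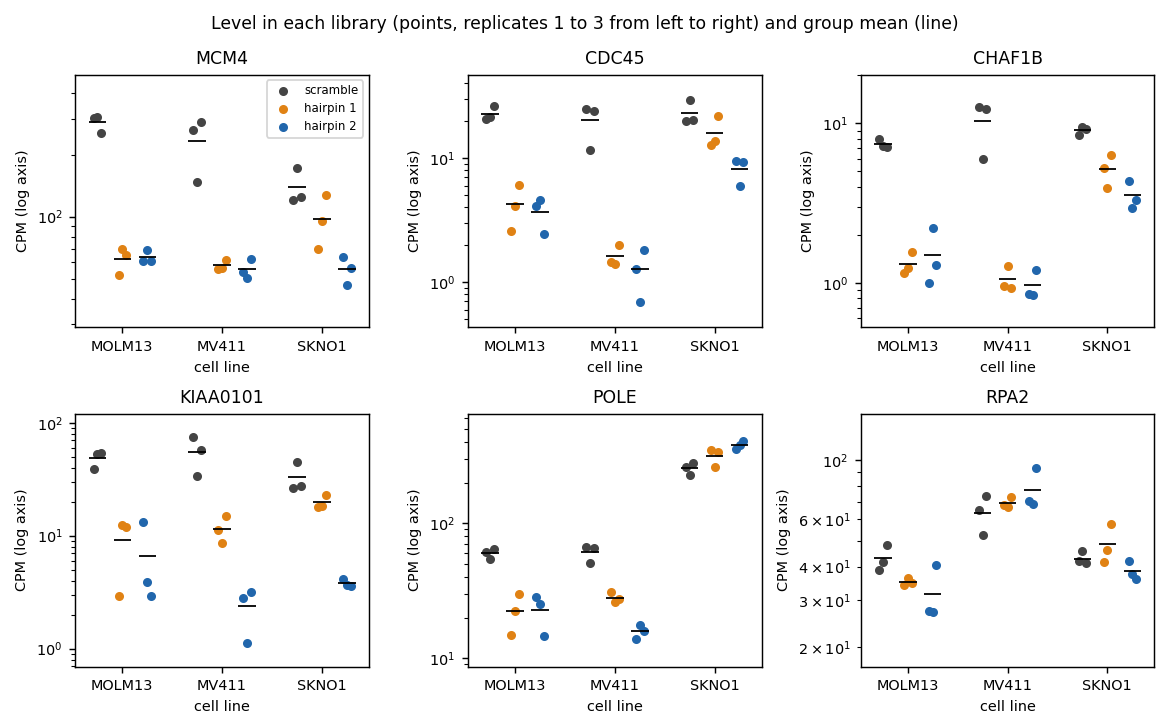
Points give the level of 6 genes in each library, in CPM on a log axis, by line and by scramble, hairpin 1 or hairpin 2, and lines give group means. CDC45 falls to 0.692 to 1.99 CPM in the MV411 knockdown libraries, POLE lies at 227 CPM or more in SKNO1 and at 66.1 CPM or less in the other lines, and RPA2 overlaps between groups in every line.

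Members not called where most others were kept the sign of the group, with RPA2 in MV411 as the exception, and the sign of RPA2 with hairpin 1 there changed in some settings. In MV411 the pooled comparison left PRIM2 (-0.74 ± 0.19, adjusted p = 0.051), POLD2 (-0.67 ± 0.18, adjusted p = 0.053) and RFC1 (-0.53 ± 0.20, adjusted p = 0.16) above the threshold, beside DBF4, PCNA and RPA2. MOLM-13 hairpin 1 left POLE2 (-1.38 ± 0.37, adjusted p = 0.052), RFC2 (-0.86 ± 0.24, adjusted p = 0.058), RPA3 (-0.81 ± 0.22, adjusted p = 0.056), DBF4 (-0.49 ± 0.20), PRIM2 (-0.52 ± 0.14), PCNA (-0.64 ± 0.21), RFC1 (-0.62 ± 0.18) and RPA2 (-0.27 ± 0.17). Hairpin 2 in MOLM-13 left PRIM2 (-0.49 ± 0.14, adjusted p = 0.056), PCNA (-0.71 ± 0.21, adjusted p = 0.061) and RPA2 (-0.39 ± 0.17, adjusted p = 0.17). Without both MOLM-13 replicate 1 libraries, hairpin 1 also left POLD1 (-0.95 ± 0.28, adjusted p = 0.096) and TIPIN (-1.08 ± 0.26, adjusted p = 0.054), and hairpin 2 also left RFC1 (-0.78 ± 0.21, adjusted p = 0.053), RFC2 (-0.92 ± 0.25, adjusted p = 0.055) and POLD1 (-0.92 ± 0.28, adjusted p = 0.072). MV411 hairpin 1 left DBF4 (-0.53 ± 0.32), TOPBP1 (-0.81 ± 0.22), POLD1 (-0.97 ± 0.27), POLD2 (-0.43 ± 0.14), PCNA (-0.64 ± 0.24), RFC1 (-0.57 ± 0.24), RPA1 (-0.60 ± 0.17) and RPA2 (0.12 ± 0.16). Hairpin 2 in MV411 left DBF4 (-1.01 ± 0.32), PRIM2 (-0.58 ± 0.20), PCNA (-0.56 ± 0.24), RFC1 (-0.49 ± 0.24) and RPA2 (0.31 ± 0.16). SKNO1 hairpin 2 left DBF4 (-0.98 ± 0.30), PRIM2 (-0.55 ± 0.21), POLD1 (-0.64 ± 0.20), DNA2 (-0.70 ± 0.22), RPA1 (-0.32 ± 0.18) and RPA2 (-0.17 ± 0.17), beside MCM7, CDT1 and TIMELESS given above.

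The hairpins were then compared with each other. In MOLM-13, 0 of 49 genes differed, and 0 of 17732 genes did (percent called 0), with 1 of the 49 at an unadjusted p under 0.05 (1.89% of all genes) and 0 by DESeq2 (0.00564% of all genes). Leaving out both replicate 1 libraries also gave 0, with KIAA0101 at -1.80 ± 0.24 (adjusted p = 0.18). KIAA0101 is part of the score behind that choice, so its value there is no independent test. In MV411, 3 genes were lower with hairpin 2, a share of the 49 near that of all genes (background 5.62% lower and 11.5% in either direction). These were KIAA0101 (-2.24 ± 0.38, adjusted p = 0.0044), POLE (-0.80 ± 0.16, adjusted p = 0.0084) and POLD2 (-0.54 ± 0.14, adjusted p = 0.028). Without hairpin 1 replicate 1, and also without hairpin 2 replicate 1, 1 gene was called there. In SKNO1, 13 were lower with hairpin 2 (background 9.52% in either direction), led by KIAA0101 (-2.38 ± 0.24, adjusted p = 0.00019), RFC2 (-1.03 ± 0.18, adjusted p = 0.0039) and POLD2 (-0.90 ± 0.17, adjusted p = 0.0055). The other 10 were MCM2, MCM4, CDC45, ORC1, RECQL4, POLA2, POLD1, FEN1, LIG1 and CHAF1A, with changes from -0.97 to -0.65. That count was 3 without hairpin 1 replicate 3, 5 without hairpin 2 replicate 1, 2 without hairpin 2 replicate 2 and 4 without hairpin 2 replicate 3. Backgrounds for these left-out settings are not given, so the counts cannot be set against the share of all genes.

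Whether the lines answered hairpin 2 by different amounts was tested by interaction terms over all 27 libraries. MV411 and SKNO1 differed for 7 of 49 genes (background 0.927% of 21262 genes in either direction). POLE, which fell in MV411 and rose in SKNO1, differed by -2.46 ± 0.31, adjusted p = 0.00028. The other 6 had fitted values below 0 in both lines and further below 0 in MV411: MCM5 (-1.70 ± 0.26, adjusted p = 0.0026), MCM2 (-1.67 ± 0.27, adjusted p = 0.0033), MCM7 (-1.60), CDC45 (-2.42), GINS2 (-1.65) and CHAF1B (-2.01). Of these 7, 5 encode parts of the helicase, which is the largest role group of the 49, and a difference by role was not tested. MOLM-13 and SKNO1 differed for POLE alone (-1.93 ± 0.30, adjusted p = 0.0035, background 0.489%), and without the MOLM-13 replicate 1 libraries it again differed alone, by -2.13 (adjusted p = 0.001), and MCM2 was nearest among the rest (-1.14 ± 0.27, adjusted p = 0.051). That count was 4 without MV411 scramble replicate 2 and 2 without any 1 of 7 others (MOLM-13 hairpin 1 replicate 1 and hairpin 2 replicate 2, MV411 scramble replicates 1 and 3 and hairpin 2 replicate 2, SKNO1 hairpin 1 replicates 2 and 3). MOLM-13 and MV411 differed for 0 genes (background 0.0705%), with 8 at an unadjusted p under 0.05 (6.52% of all genes) and 0 by DESeq2 (0.329% of all genes), and for 0 genes without the MOLM-13 replicate 1 libraries.

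Scramble libraries show how much of each gene the lines carried without knockdown. PCNA was the most abundant of the 49 per length of exon in all 3 lines, at 118 ± 7.49 CPM per kb in MOLM-13, 88.2 ± 26 in MV411 and 64.4 ± 14.9 in SKNO1 (SD, n = 3), followed by MCM7 in each line. CHAF1B and GINS3 were among the 3 least abundant in each line, between 1.45 and 2.01 CPM per kb. Scramble libraries of MOLM-13 and MV411 differed for 6 genes (background 28.2%), those of MOLM-13 and SKNO1 for 12 (background 52.4%) and those of MV411 and SKNO1 for 15 (background 52.6%). Without MV411 scramble replicate 2 the count for MOLM-13 and MV411 was 10, and the count for MV411 and SKNO1 was 9 without MV411 scramble replicate 3 and also without SKNO1 scramble replicate 3. In each comparison the share of the 49 that differed was below the share of all genes.

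POLE differed most between the lines, at 15.4 ± 1.62 CPM per kb in SKNO1 against 3.61 ± 0.306 in MOLM-13 and 3.67 ± 0.516 in MV411. The log2 difference from SKNO1 was -2.12 ± 0.22, adjusted p = 1.4e-08 for MOLM-13 and -2.08 ± 0.22, adjusted p = 1.9e-08 for MV411. GINS4 ran the other way, higher in MOLM-13 than in SKNO1 (1.63 ± 0.23, adjusted p = 1.6e-06) and higher in MV411 than in SKNO1 (0.91 ± 0.23, adjusted p = 0.0015), and so did MCM4 (1.02 ± 0.22, adjusted p = 0.00032 and 0.73 ± 0.22, adjusted p = 0.0059). Between MOLM-13 and MV411, PRIM1 was lower in MOLM-13 (-0.85 ± 0.23, adjusted p = 0.0073) and RECQL4 was higher (0.87 ± 0.24, adjusted p = 0.0081).

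**Figure D5:**
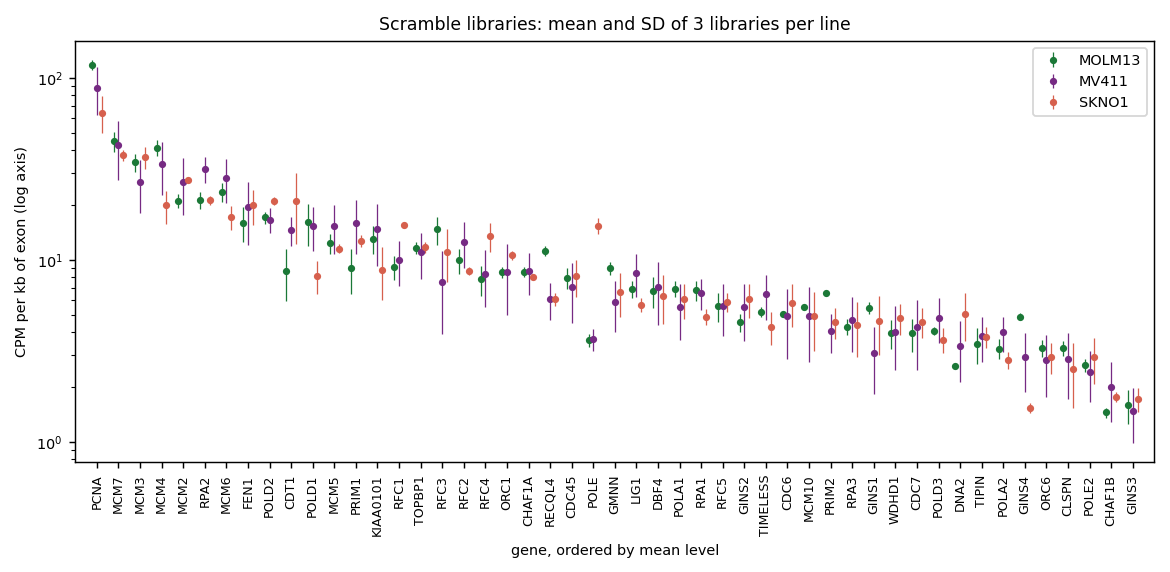
Points give the mean level of each gene in the 3 scramble libraries of a line, in CPM per kb of exon on a log axis, with the SD as bars, and genes are ordered by their mean over the lines. PCNA lies highest in all 3 lines, and POLE in SKNO1 lies at 15.4 CPM per kb, above the other lines at 3.61 and 3.67.

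Other replication genes fell in part. Of 36 further origin, polymerase, clamp and chromatin genes, 22 fell and 1 rose in the combined comparison, in which 10.8% of all genes fell and 10.2% rose, with a median of -0.41 against -1.29 for the 49. ATAD5, which unloads the clamp (-1.20 ± 0.12, adjusted p = 1.1e-07), MMS22L, a fork repair factor (-1.16 ± 0.12, adjusted p = 1.5e-07), and MCM8, a relative of the MCM ring (-1.39 ± 0.18, adjusted p = 1.7e-06), were among those that fell, and POLD4, a small subunit of polymerase delta, rose (0.56 ± 0.13, adjusted p = 0.002). The origin recognition subunits ORC2 (-0.24 ± 0.10), ORC4 (-0.08 ± 0.09) and ORC5 (-0.17 ± 0.10) did not pass, while ORC1 and ORC6 did. POLE3 (-0.26 ± 0.09) and POLE4 (-0.16 ± 0.11), accessory subunits of polymerase epsilon, did not pass either. With hairpin 2 in SKNO1, 9 of these 36 fell (background 5.69%) and 2 rose (background 5.54%; LRWD1 and CHTF8).

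Most genes that supply nucleotides fell. Of 10, 8 fell in the combined comparison (background 10.8%), among them RRM1, the large subunit of ribonucleotide reductase (-1.33 ± 0.14, adjusted p = 8.8e-08), and TYMS, thymidylate synthase (-1.41 ± 0.17, adjusted p = 9.7e-07). The other two rose (background 10.2%), and they were RRM2B, the reductase subunit induced by p53 (0.61 ± 0.14, adjusted p = 0.0017), and SAMHD1, which degrades nucleotides (0.57 ± 0.20, adjusted p = 0.038). Of 17 E2F factors and their regulators, 10 fell (background 10.8%), among them RBL1 (-1.0 ± 0.10, adjusted p = 3.2e-08), E2F8 (-1.89 ± 0.26, adjusted p = 5.7e-06) and E2F1 (-1.89 ± 0.27, adjusted p = 1e-05), and 0 rose. All 20 mitotic genes fell in the combined comparison (background 10.8%, median -1.61), led by BUB1B (-1.78 ± 0.20, adjusted p = 2.7e-07).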

How the data were processed

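RNA was extracted with Trizol and RNeasy columns and sequenced from TruSeq stranded libraries after Ribo-Zero depletion, per the labels' protocols. Per the submitters' processing notes, the aligner was STAR 2.5.3, the build GRCh38.p7 and the counter RSEM (version not given in the sources used here). The authors deposited a table of RSEM expected counts per gene, without scaling for depth or length, and among values above 0, 30.39% are not whole (tolerance 1e-09). Whether counting used strand is not given in the sources used here. Column names matched sample titles, and none was left over.

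Counts were rounded and tested in R 4.3.3 with edgeR 4.0.16 (filterByExpr with a minimum count of 10 and a minimum total of 15, TMM scaling, quasi-likelihood F-test, two-sided, Benjamini-Hochberg adjustment over all genes tested, threshold 0.05). Since that test gives no standard error, each one printed is the size of the log2 fold change divided by the square root of its F statistic. Levels are CPM on the TMM-scaled sizes of all 27 libraries, and log2 CPM used a prior count of 2. Each line was fitted on its own 9 libraries, with the hairpins pooled or as separate groups. The combined comparison had line as a term, and differences between lines used 9 groups in 1 fit. No label says whether replicates were separate cultures, so p-values measure only the spread between these samples. The chi-square per gene compares the counts of a pair of replicates after scaling to depth.

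The 49 genes and all other lists were chosen with earlier results of these data known. Values in every library are given for the genes with the largest and the smallest combined change in each role group, MCM2 to MCM7 and CDC45. Full statistics are given for up to 3 genes per direction with the smallest p in a comparison, for genes called against the main direction and for genes that missed the threshold where most passed. Library values of POLE and PCNA, of CDT1 in the SKNO1 scramble libraries and of the markers CD14, ITGAM and LYZ were added after the values were seen. So were the fitted changes of these markers and of HOXA9, MEIS1 and FLT3. The values above 0 with SKNO1 hairpin 1, those of RECQL4 in pooled SKNO1 and those of CDC20 and PLK1 were also added then. Of each other list, up to 3 genes per direction with the smallest p are named, and ORC2, ORC4, ORC5, POLE3 and POLE4 were added after their values were seen. The values of 1 gene that this rule names are not reported here. Alternatives were other scaling, no filter, DESeq2 1.42.0, other fits, the replicate number as a block, no structured RNA and each library left out. Leaving out both MOLM-13 replicate 1 knockdown libraries was chosen after seeing the data. Gene positions are from GENCODE 29, and promoters are from the RefSeq table.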

Additional observations from a re-analysis of the deposited data

Results flagged for a closer look

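The response to hairpin 2 differed between lines for 8 pairs of gene and comparison, by an interaction term in edgeR over all 27 libraries (Benjamini-Hochberg adjusted p). Between MOLM-13 and SKNO1, POLE differed by -1.93 on the log2 scale (adjusted p = 0.0035). It was lower than scramble in 3 of 3 MOLM-13 hairpin 2 libraries and higher in 3 of 3 of SKNO1. Without the MOLM-13 replicate 1 knockdown libraries, which scored on the side of the other hairpin, POLE differed by -2.13 (adjusted p = 0.001). Between MV411 and SKNO1, POLE differed by -2.46 (adjusted p = 0.00028), again with opposite directions in the lines. The other genes had fitted values below 0 in both lines and further below 0 in MV411: MCM5 by a difference of -1.70 (adjusted p = 0.0026), MCM2 by -1.67 (adjusted p = 0.0033), MCM7 by -1.60 (adjusted p = 0.008), CDC45 by -2.42 (adjusted p = 0.013), CHAF1B by -2.01 (adjusted p = 0.013) and GINS2 by -1.65 (adjusted p = 0.028). Of these, MCM7 missed the threshold within SKNO1. CARM1 remaining with hairpin 2 was 12.6% in MV411 and 15.5% in SKNO1, and the part of this difference in the result was not tested.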

How the results depend on the processing

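Over the alternatives, 7814 of 8204 gene values that were called kept direction and call, 390 lost the call and 0 reversed. Counts of called genes moved by over 1.5 times as follows. Without a filter on low counts, the count was 6 for SKNO1 pooled (otherwise 0), 10 for SKNO1 hairpin 1 (0), 6 and 26 for hairpin 2 against hairpin 1 in MV411 (3) and SKNO1 (13), and 3, 7 and 14 for the hairpin 2 differences MOLM-13 minus MV411 (0), MOLM-13 minus SKNO1 (1) and MV411 minus SKNO1 (7). With DESeq2 it was 19 for SKNO1 pooled, 9 for SKNO1 hairpin 1, 4 for MOLM-13 minus SKNO1 and 11 for MV411 minus SKNO1. SKNO1 pooled gave 26 with the hairpins as separate groups and 23 with all 27 libraries in 1 fit, and MOLM-13 minus SKNO1 gave 2 in a fit of those lines alone. The cause of these moves was not tested. Where no background is given for a setting, its count cannot be set against the share of all genes. With the replicate number as a block, SKNO1 hairpin 1 gave 3 and MV411 hairpin 2 against hairpin 1 gave 5, and no other count moved by over 1.5 times (SKNO1 pooled 0, SKNO1 hairpin 2 43, combined 48). The numbers did not meet the rule for pairing, every same-number correlation over 0.1, in any line: same-number correlations were over 0.1 in 5 of 9 pairs in MOLM-13, 8 of 9 in MV411 and 5 of 9 in SKNO1, and 5, 9 and 7 of 9 libraries were closest to their own number. MV411 came nearest (correlations 0.07 to 0.59), a hint from the data and not the design. Leaving out 1 library at a time gave 0 to 2 for SKNO1 pooled (highest without hairpin 1 replicate 2), 0 to 4 for SKNO1 hairpin 1, 13 to 43 for SKNO1 hairpin 2, 1 to 4 for MV411 hairpin 2 against hairpin 1, 2 to 19 for that of SKNO1, 1 to 4 for MOLM-13 minus SKNO1, and, for scramble, 4 to 10 between MOLM-13 and MV411 and 9 to 16 between MV411 and SKNO1. A group left with 2 libraries shares the spread of the other groups. Of genes not called, 2 changed sign in some setting in the pooled SKNO1 comparison, 7 with SKNO1 hairpin 1, 1 (RPA2) with MV411 hairpin 1 and in the combined comparison, 32, 17 and 4 between hairpins in MOLM-13, MV411 and SKNO1, 22, 7 and 9 in the differences between lines in the order above, and 24, 13 and 22 between scramble libraries of MOLM-13 and MV411, MOLM-13 and SKNO1, and MV411 and SKNO1.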
